A study of Capra hircus with 9 samples.

Results

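The miR-15/16 family, which also holds miR-195 and miR-497, was described in small RNA libraries of goat mammary gland. Its members were taken as the listed rows named for miR-15a, miR-15b, miR-16a, miR-16b, miR-195 or miR-497, leaving out the 3p arms. This gave 6 of the 1359 listed miRNAs, all of them 5p arms: chi-miR-15a-5p, chi-miR-15b-5p, chi-miR-16a-5p, chi-miR-16b-5p, chi-miR-195-5p and chi-miR-497-5p. The libraries came from Laoshan dairy goats, which were healthy animals of parity 3 with a mean age of 4 years. Mammary tissue was collected after slaughter from 3 goats per stage, with 1 library per goat. Late lactation (LL) was sampled at day 240 after birth, the dry period (DP) at day 300 after birth, and late gestation (LG) at day 140 of pregnancy, counted from mating. Each stage was sampled in different goats, so a difference between stages is a difference between animals.

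A mature miRNA guides a silencing complex to messenger RNAs that pair with its seed, the short stretch near its 5′ end. The members of this family share that seed and so can pair with overlapping sets of messages. In other tissues they are best known for repressing cyclins, the kinase CDK6 and the survival factor BCL2, and so for holding cells out of the cell cycle and for permitting apoptosis. In the mammary gland, the dry period is when secretory cells are lost and the tissue is rebuilt, and late gestation is when the epithelium grows again.

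The 6 hairpins lie in 3 pairs on the goat genome (ARS1.2). The hairpins of miR-16b (chromosome 1 from 106607549 to 106607645) and miR-15b (chromosome 1 from 106607692 to 106607789) lie 46 bp apart within SMC4, a protein-coding gene for a subunit of condensin. The hairpins of miR-15a (chromosome 12 from 67096003 to 67096097) and miR-16a (chromosome 12 from 67096144 to 67096232) are also 46 bp apart and lie within no other gene of the annotation. The hairpins of miR-195 (chromosome 19 from 26614031 to 26614121) and miR-497 (chromosome 19 from 26614339 to 26614451) are 217 bp apart, lie within no other annotated gene, and have C19H17orf49 as their nearest neighbour, 84 bp from miR-195. The gene table used gives no exons, so exonic and intronic positions were not separated.

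The counts of a library summed to between 13672653 and 34378995, so that a count of 0 allows a level of 0.0873 to 0.219 CPM, depending on the library. CPM are counts scaled to a fixed library total, and this limit is the level that 3 counts give. Libraries were scaled with TMM, and levels below are TMM-scaled CPM. Of 6 epithelial marker labels, 4 were analysed here (chi-miR-200a, chi-miR-200b, chi-miR-200c and chi-miR-429), and no library of the labelled mammary tissue had a summed level below 12854 CPM. The counts of libraries from the same stage differed by more than sampling noise (chi-square at least 219 times its degrees of freedom).

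The family was carried by miR-16. Chi-miR-16a-5p and chi-miR-16b-5p together made up 93.8% to 96.7% of the family's counts in each library. Chi-miR-16a-5p ranked 26th by mean level among the listed miRNAs in DP, 42nd in LL and 44th in LG. The order of the members was the same in each stage: chi-miR-16a-5p, chi-miR-16b-5p, chi-miR-497-5p, chi-miR-15b-5p, chi-miR-15a-5p and chi-miR-195-5p. No neighbours in this order overlapped between the libraries of a stage. Mature miRNAs are close in length, so CPM was not divided by length, but the ligation of adapters favours some sequences, so the order of levels is that of reads. The family took 0.623% ± 0.145 (SD, n = 3) of all counts in DP, against 0.195% ± 0.0365 (SD, n = 3) in LL and 0.293% ± 0.0211 (SD, n = 3) in LG. With TMM scaling it summed to 6083 ± 1844 CPM in DP, 2414 ± 151 CPM in LL and 2438 ± 311 CPM in LG. The gap between LL and LG thus depended on the scaling.

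All members had their highest mean level in DP. Chi-miR-16a-5p, the most abundant, had 3832, 6221 and 3556 CPM in the 3 DP libraries. Its LL libraries held 1820.3, 2045 and 1752 CPM, and its LG libraries 1834, 1655 and 1359.8 CPM. Every DP library was thus above every library of the other stages, while LL and LG overlapped. For chi-miR-16b-5p the DP libraries had 1395, 1639.8 and 762 CPM, the LL libraries 464, 451 and 417 CPM, and the LG libraries 755, 751 and 606 CPM. Its 3 stages did not overlap, but the lowest DP library was close to the highest LG library, and LL was the lowest stage.

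**Figure D1:**
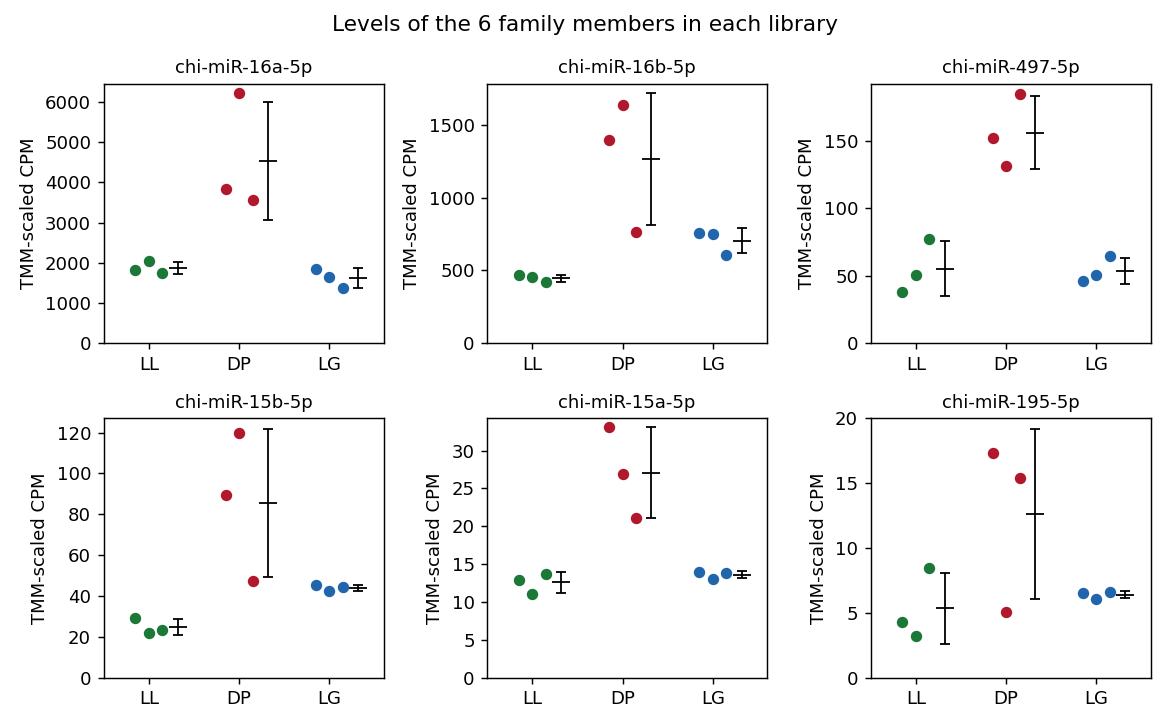
Level of each member (TMM-scaled CPM, linear axes from 0) in the 9 libraries of late lactation (LL), the dry period (DP) and late gestation (LG); each point is 1 goat, and the bar is the mean ± SD of 3. The DP libraries are above those of LL and LG for every member but chi-miR-195-5p, whose lowest DP library is at 5.10 CPM.

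The other members were far less abundant. Chi-miR-15b-5p, from the same gene as miR-16b, had 89.3, 119.9 and 47.4 CPM in DP. The LL libraries held 29.4, 21.9 and 23.5 CPM and the LG libraries 45.2, 42.4 and 44.5 CPM. It had the same order of stages as chi-miR-16b-5p, with DP replicate 3 just above LG. Chi-miR-15a-5p, the neighbour of miR-16a, had 33.1, 26.9 and 21.1 CPM in DP. It had 12.9, 11.1 and 13.7 CPM in LL, and between 13.1 and 13.96 CPM in LG. Its LL and LG libraries lay within a narrow band and overlapped on this scale. Scaled by library size only they did not overlap, at 9.64 to 10.3 CPM in LL and 15.5 to 17.8 CPM in LG.

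Chi-miR-497-5p had 152, 132 and 185 CPM in DP, against 37.9, 50.2 and 77.5 CPM for LL and 45.8, 50.3 and 64.3 CPM for LG. Its DP libraries stood apart, and the LG libraries lay within the wider range of LL. Chi-miR-195-5p had 17.3, 5.10 and 15.4 CPM in DP, against 4.32, 3.24 and 8.47 CPM for LL and 6.52, 6.08 and 6.62 CPM for LG. DP replicate 2, the library with the highest chi-miR-16a-5p, lay below all LG libraries for this member. That value rests on 111 counts from 1 goat.

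In DP vs. LL, the comparison that spans the cessation of milk secretion, 5 of the 6 members were differentially expressed and all 5 were higher in DP. A miRNA was called differentially expressed when edgeR's quasi-likelihood test gave an adjusted p (Benjamini-Hochberg over all 696 tested miRNAs) under 0.05 and the absolute log2 fold change was above 1. Of all tested miRNAs, 15.1% were higher in DP by the same rule. The libraries of both stages did not overlap, with DP higher, for the same 5 members and for 21.0% of all tested miRNAs. Members had a median log2 fold change of 1.39, against 0.12 for all tested miRNAs.

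The largest difference in DP vs. LL was that of chi-miR-15b-5p, which reached 1.78 on the log2 scale (SE 0.34, adjusted p = 0.00331). Chi-miR-16b-5p followed with 1.51 (SE 0.28, adjusted p = 0.00287). The log2 difference of chi-miR-497-5p was 1.50 (SE 0.31, adjusted p = 0.00512), and that of chi-miR-16a-5p was 1.28 (SE 0.25, adjusted p = 0.00378). These 4 kept their call in each of the 19 alternative fits. For chi-miR-15a-5p the difference was 1.10 on the log2 scale (SE 0.27, adjusted p = 0.0113), and it lost its call without LL replicate 2 (0.98, adjusted p = 0.0512 from edgeR's test) and without DP replicate 1 (0.81, adjusted p = 0.027), among others. Differences between members were not tested.

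Chi-miR-195-5p did not pass in DP vs. LL, where its log2 difference was 1.23 (SE 0.49, adjusted p = 0.0785 from edgeR's test). This value moved with single libraries and with the fit. With all libraries it passed with DESeq2 (1.23, adjusted p = 0.0468) and by library size only (1.68, adjusted p = 0.0274). Without DP replicate 2 it was 1.67 (adjusted p = 0.0126) and without LL replicate 3 it was 1.69 (adjusted p = 0.0468), both past the limits. It was 0.82 without DP replicate 1, 0.98 without DP replicate 3 and 0.99 without LL replicate 2, and leaving out any of the other libraries did not bring the adjusted p under 0.05.

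DP vs. LG compared the gland of the dry period with the gland before birth. Here 2 of the 6 members were differentially expressed, both higher in DP, where 21.6% of all tested miRNAs were. The log2 difference was 1.55 for chi-miR-497-5p (SE 0.31, adjusted p = 0.00331). It was 1.49 for chi-miR-16a-5p (SE 0.25, adjusted p = 0.00134). Both kept their call in every alternative fit, with log2 fold changes between 1.17 and 1.55 and between 1.05 and 1.49. By the adjusted p alone, 5 of the 6 members were higher in DP, against 23.7% of all tested miRNAs, and this number was between 2 and 5 over the alternative fits.

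The other 4 members had log2 fold changes just under the limit of 1 in DP vs. LG. These were 0.99 (SE 0.27, adjusted p = 0.016) for chi-miR-15a-5p, 0.96 (SE 0.33, adjusted p = 0.0434) for chi-miR-15b-5p and 0.85 (SE 0.28, adjusted p = 0.0352) for chi-miR-16b-5p. For chi-miR-195-5p the value was 0.97 (SE 0.48, adjusted p = 0.144). Chi-miR-15b-5p passed the limit without DP replicate 3 (1.03, adjusted p = 0.0251), and chi-miR-195-5p without DP replicate 2 (1.21, adjusted p = 0.0384). In the other direction, chi-miR-15a-5p was at 0.63 (adjusted p = 0.0599) without DP replicate 1, and chi-miR-15b-5p was at 0.45 (adjusted p = 0.273) and chi-miR-16b-5p at 0.43 (adjusted p = 0.235) without DP replicate 2, and chi-miR-195-5p was at 0.49 (adjusted p = 0.462) without DP replicate 1 and at 0.52 (adjusted p = 0.464) without DP replicate 3. DP and LG did not overlap for 5 members with DP higher, against 27.7% of all tested miRNAs. Scaled by library size only, they did not overlap, with DP higher, for 3 members, against 23.0% of all tested miRNAs, and chi-miR-15b-5p, chi-miR-16b-5p and chi-miR-195-5p overlapped.

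**Figure D2:**
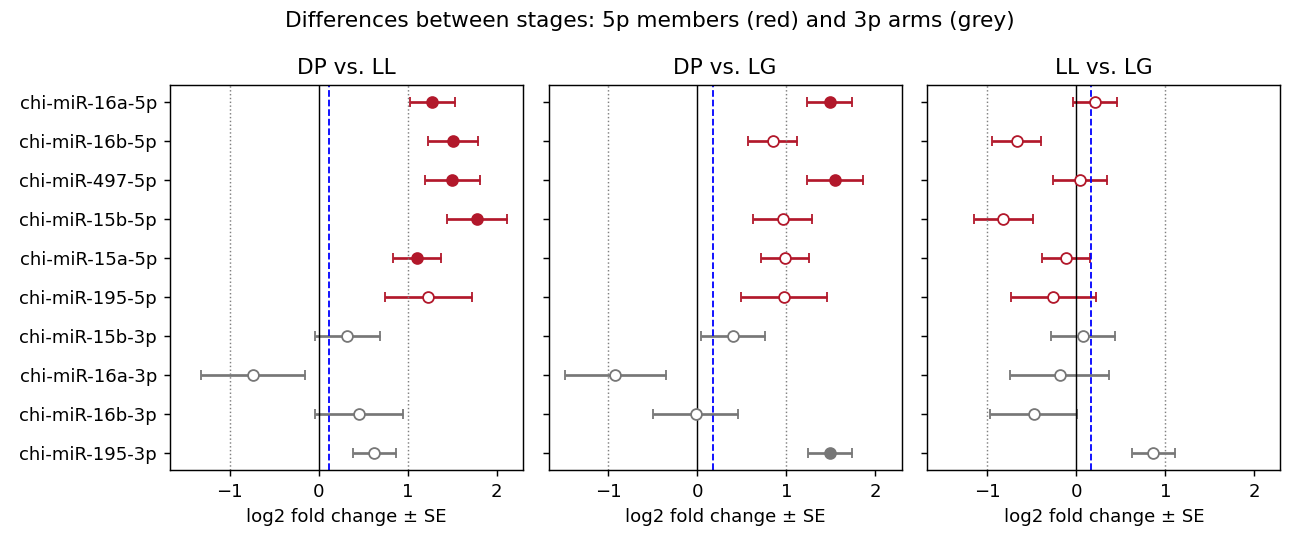
log2 fold change ± SE (edgeR) in the 3 comparisons for the 6 members (red) and the 4 tested 3p arms of their hairpins (grey), filled where differentially expressed. The dashed blue line is the median of all 696 tested miRNAs and the dotted lines mark −1 and 1; in DP vs. LL 5 members are filled, in DP vs. LG 2, and in LL vs. LG 0.

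In LL vs. LG, 0 of the 6 members were differentially expressed by edgeR, where 12.8% of all tested miRNAs were, and 2 had an unadjusted p under 0.05, against 33.0% of all tested miRNAs. DESeq2 and limma-voom also called 0. The 2 were the pair within SMC4, which in DESeq2 had adjusted p = 0.0213 (chi-miR-15b-5p) and adjusted p = 0.029 (chi-miR-16b-5p) and missed the fold limit. In edgeR's fit the log2 difference was −0.82 for chi-miR-15b-5p (SE 0.33, adjusted p = 0.12) and −0.67 for chi-miR-16b-5p (SE 0.28, adjusted p = 0.125). Their libraries did not overlap, with LL lower, which held for 17.4% of all tested miRNAs. Scaled by library size only, this held for 4 members, against 36.9% of all tested miRNAs, and chi-miR-16a-5p and chi-miR-497-5p overlapped. In that scaling the pair within SMC4 was differentially expressed, at −1.41 (adjusted p = 0.0178) and −1.24 (adjusted p = 0.0174). The median log2 fold change of all tested miRNAs was −0.42 there, against 0.17 in the reported fit. For chi-miR-15a-5p and chi-miR-195-5p the log2 fold changes were −0.11 (SE 0.27) and −0.26 (SE 0.48). For chi-miR-16a-5p and chi-miR-497-5p they were 0.21 (SE 0.25) and 0.05 (SE 0.30), and their sign changed with the scaling.

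The members' values depended on the fit. Over the alternatives, the median log2 fold change of the members ranged from 1.26 to 1.78 in DP vs. LL, from 0.62 to 0.98 in DP vs. LG and from −0.79 to −0.16 in LL vs. LG. Relative to the median of all tested miRNAs in the same fit, it was between 1.14 and 1.40 in DP vs. LL, between 0.72 and 1.03 in DP vs. LG and between −0.54 and −0.18 in LL vs. LG. The reported fit gave the highest median of the members in DP vs. LG, 0.98.

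**Figure D3:**
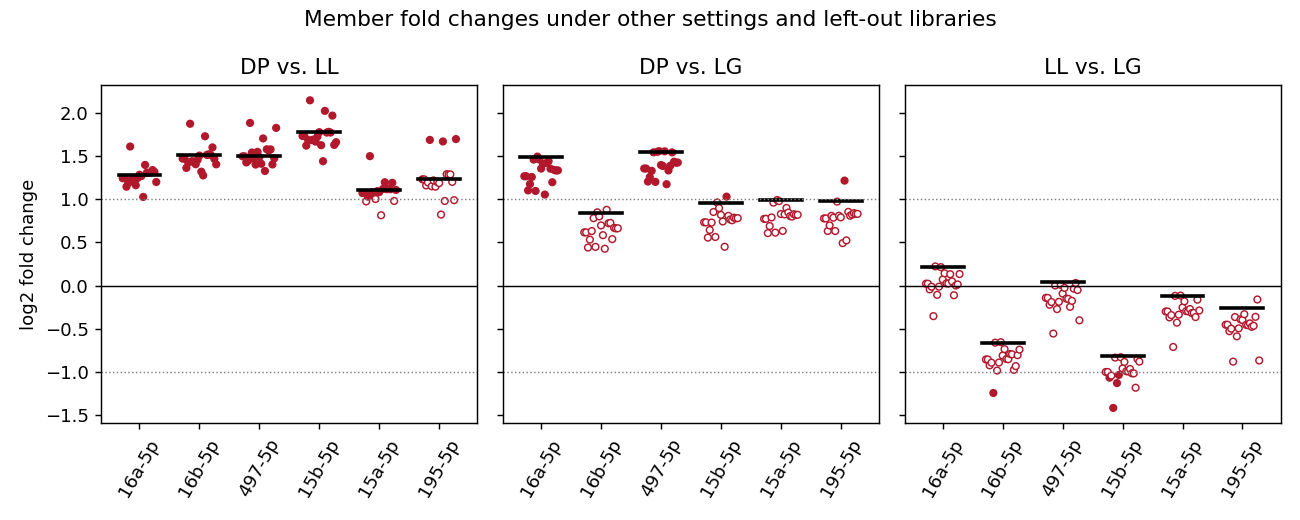
log2 fold change of each member in the reported fit (black line) and in 19 alternative fits (points: other tools, scalings and filters, a block on replicate number, and fits without 1 library), filled where differentially expressed; dotted lines mark −1 and 1. Every point of chi-miR-16a-5p and chi-miR-497-5p is filled in both comparisons with DP.

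Ratios of members within a library need no scaling between libraries. Chi-miR-16a-5p had 3.92 to 4.54 times the counts of chi-miR-16b-5p in LL, 2.75 to 4.67 times in DP and 2.20 to 2.43 times in LG. The LG libraries were below all others, and LL and DP overlapped. The share of the variance of the log2 ratio that lay between stages was 0.794 (one-sided exact permutation test with 280 arrangements, p = 0.0179, adjusted p = 0.0714 over the 4 ratios computed), so the difference did not hold after adjustment. The mature miR-16a and miR-16b of mammals are near-identical, so reads may be split between them and the ratio is uncertain to that degree. No listed miRNA had counts within 10% of those of a member in every library.

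The ratios of hairpin neighbours overlapped between stages. Chi-miR-16a-5p had 98.2 to 231 times the counts of chi-miR-15a-5p, with both extremes outside LL. Chi-miR-16b-5p had 13.6 to 20.6 times the counts of chi-miR-15b-5p. Chi-miR-497-5p had 7.02 to 15.5 times the counts of chi-miR-195-5p in LL and LG, and 8.78, 25.8 and 12.0 times in DP replicates 1, 2 and 3. In the same exact permutation test the p-values were 0.329, 0.293 and 0.293 for these 3 ratios (adjusted p = 0.329 for each).

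**Figure D4:**
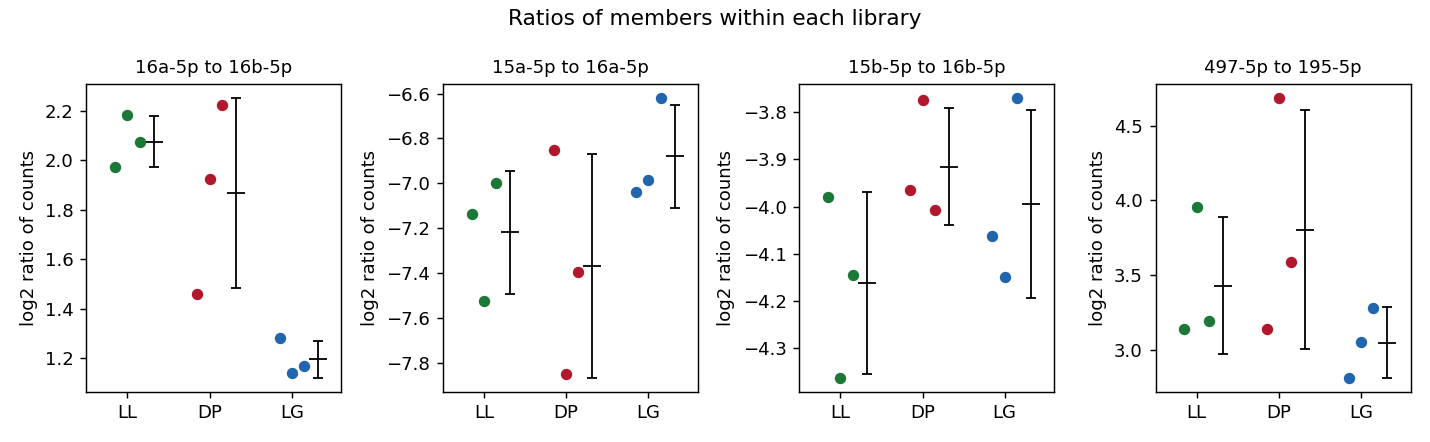
log2 ratio of the counts of 2 members within each library (points, 1 goat each) by stage, with mean ± SD of 3 goats; axes do not start at 0. The ratio of chi-miR-16a-5p to chi-miR-16b-5p lies between 1.14 and 1.28 in the LG libraries and at 1.46 or more in all others.

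Across the 9 libraries, log2 CPM of chi-miR-15b-5p and chi-miR-16b-5p followed each other most closely among the members (Pearson's r = 0.98). For chi-miR-15a-5p r was 0.86 with its neighbour chi-miR-16a-5p, 0.88 with chi-miR-16b-5p and 0.87 with chi-miR-15b-5p. For chi-miR-497-5p it was 0.75 with its neighbour chi-miR-195-5p, 0.86 with chi-miR-15a-5p and 0.79 with chi-miR-16a-5p. The lowest r between members was 0.33, for chi-miR-16a-5p and chi-miR-195-5p. These values describe 9 libraries that fall into 3 stages and share their depth and scaling within a library.

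The 3p arms of the hairpins, which the choice of members left out, did not all follow the 5p arms. A hairpin is cut into a 5p and a 3p strand, of which usually 1 is kept in the silencing complex. The 5p arm took at least 99.6% of the reads of the miR-16a and miR-16b hairpins, and at least 97.2% for miR-15a and miR-497, in each library. For miR-15b it took 84.4% ± 4.52 (SD, n = 3) in LL, 93.4% ± 2.08 in DP and 91.1% ± 2.06 in LG. The LL libraries were the lowest, with at most 87.4% (95% Wilson interval 83.9% to 90.2%).

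The miR-195 hairpin was the exception. Its 5p arm, the family member, took 4.13% ± 1.44 (SD, n = 3) of the hairpin's reads in LL, 6.32% ± 3.28 in DP and 8.92% ± 1.45 in LG. The 3p arm was therefore the abundant strand in every library. The lowest 5p share was 2.55% in DP replicate 2 (95% Wilson interval 2.12% to 3.06%) and the highest was 10.6% in LG replicate 3 (9.47% to 11.8%). PCR copies were not marked by molecular identifiers, so these intervals and the limit for 0 counts hold for counting error alone.

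**Figure D5:**
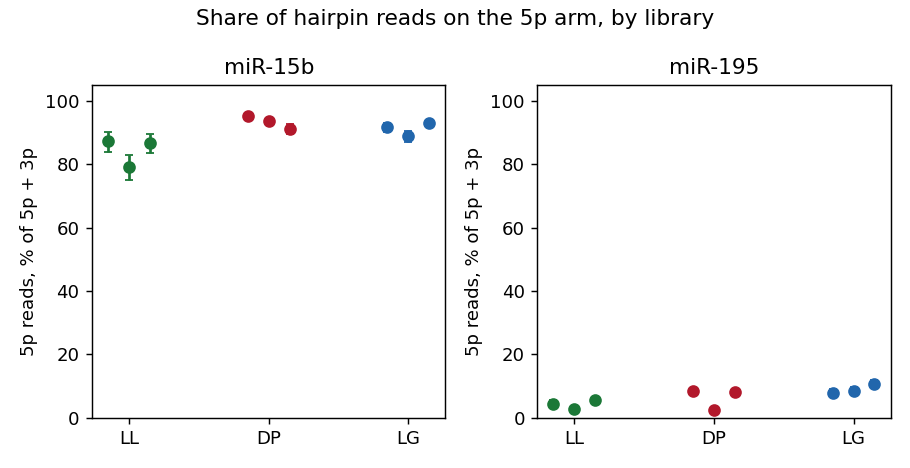
Share of the reads of the miR-15b and miR-195 hairpins that lie on the 5p arm, in percent of 5p plus 3p reads, per library with its 95% Wilson interval (counting error only). The share is 79.2% or more for miR-15b and 10.6% or less for miR-195 in every library.

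Chi-miR-195-3p had 187, 195.1 and 178 CPM in DP, against 96.9, 120.2 and 146 CPM for LL and 76.7, 66.7 and 56.0 CPM for LG. The 3 stages did not overlap, with LL between DP and LG, but LL and LG overlapped when scaled by library size only. In DP vs. LG it differed by 1.49 on the log2 scale (SE 0.25, adjusted p = 0.00119), differentially expressed in all fits. In DP vs. LL it was 0.63 (SE 0.24, adjusted p = 0.0725) and in LL vs. LG 0.86 (SE 0.24, adjusted p = 0.0387), both under the limit of 1. The latter ranged from 0.29 to 0.87 over the alternative fits, with adjusted p up to 0.473. Its level in DP replicate 2 was not low, in contrast to that of chi-miR-195-5p.

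The remaining 3p arms were rare. Chi-miR-15b-3p had 3.42 to 8.04 CPM in any library, with log2 fold changes of 0.32 (SE 0.36) in DP vs. LL and 0.40 (SE 0.36) in DP vs. LG. Chi-miR-16a-3p had 19, 3 and 23 counts in the DP libraries, 14 to 25 in LL and 36 to 58 in LG. Its log2 fold changes were −0.74 (SE 0.59, adjusted p = 0.376) in DP vs. LL and −0.92 (SE 0.57, adjusted p = 0.241) in DP vs. LG. Over the fits they ranged from −1.27 to −0.18 and from −1.52 to −0.55, and it was called in none. Its low DP library was again replicate 2, where chi-miR-16a-5p was highest. Chi-miR-16b-3p had 0.83 to 3.33 CPM and, in the reported fit, no difference beyond its SE in DP vs. LL or DP vs. LG. Over the fits its log2 fold change ranged from −0.28 to 0.85 and from −0.83 to 0.08 in these comparisons, and it was called in none. Chi-miR-15a-3p and chi-miR-497-3p had at most 4 and 14 counts in any library and did not pass the filter. In the fit without a filter neither was differentially expressed in any comparison.

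Differences between the family and its listed seed relatives were not tested. Chi-miR-103-3p and chi-miR-107-3p, known for effects on insulin and lipid metabolism, were lower in DP than in LL, as were 11.6% of all tested miRNAs, with log2 fold changes of −1.57 (SE 0.21, adjusted p = 0.000386) and −1.75 (SE 0.21, adjusted p = 0.000336). In DP vs. LG they were −0.15 (adjusted p = 0.628) and −0.08 (adjusted p = 0.799). In LL vs. LG both were higher in LL, as were 8.91% of all tested miRNAs, at 1.42 (SE 0.20, adjusted p = 0.00208) and 1.67 (SE 0.21, adjusted p = 0.00109). These 2 are near-identical in mammals, so reads may be split between them. Chi-miR-424-5p, a member of the wider seed family, had 20.1 ± 21.3 CPM in DP (SD, n = 3). Its log2 fold changes were 1.25 (SE 0.69, adjusted p = 0.194) in DP vs. LL, −0.58 (SE 0.68, adjusted p = 0.575) in DP vs. LG and −1.83 (SE 0.70, adjusted p = 0.1) in LL vs. LG. miR-503-5p was not analysed here.

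Among 15 miRNAs known to restrain growth or the cell cycle in other settings, of which chi-miR-143-3p and chi-miR-145-5p also stand on the stromal list, 7 were differentially expressed and higher in DP vs. LL and 11 in DP vs. LG, and 0 were lower in either. Of all tested miRNAs, 15.1% and 21.6% were higher in these comparisons, and 11.6% and 9.91% were lower. Among 14 miRNAs known to promote growth, 3 were higher and 2 lower in DP vs. LL, and 3 were higher and 4 lower in DP vs. LG, to be read against the same shares. Both lists hold several rows of the same families, such as let-7 on the first, and near-identical rows may share reads. The rows are therefore not independent, and the lists were chosen with earlier results of these data known. Whether the counts exceed these shares was not tested. In DP vs. LL the lists' median log2 fold change was 0.98 over the first list and 0.45 over the second, and in DP vs. LG it was 1.56 and −0.49. The 3 of the first list with the highest mean level were chi-miR-99a-5p, chi-miR-143-3p and chi-miR-26a-5p. Their log2 fold changes in DP vs. LL were 1.78 (adjusted p = 0.00185), −0.43 (adjusted p = 0.499) and 1.11 (adjusted p = 0.026). The 3 of the second list with the highest mean level were chi-miR-21-5p, chi-miR-25-3p and chi-miR-92a-3p. Their log2 fold changes were 1.02, 0.67 and −0.25 in DP vs. LL and 1.90, −0.08 and −1.02 in DP vs. LG. The second list summed to 67035 to 124609 CPM in DP, 35764 to 59626 in LL and 27196 to 34212 in LG. Chi-miR-21-5p made up most of this. The first list was also highest in DP, with 415683 to 546517 CPM, against 241991 to 298351 in LL and 195626 to 207497 in LG.

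Outside the family, the miRNAs whose log2 CPM was most like that of a member over the 9 libraries were taken from 224 known miRNAs whose mean level was 10 CPM or more, which leaves out the members and their 3p arms. They were chi-let-7b-5p (Pearson's r = 0.97) and chi-let-7c-5p (0.97) for chi-miR-15a-5p, chi-let-7d-5p (0.90) and chi-miR-106b-3p (0.87) for chi-miR-15b-5p, and chi-let-7d-5p (0.92) and chi-let-7c-5p (0.90) for chi-miR-16b-5p. For chi-miR-16a-5p they were chi-miR-374b-5p (0.97) and chi-miR-505-3p (0.97). For chi-miR-497-5p they were chi-miR-214-3p (0.97), a marker on the stromal list, and chi-miR-199b-5p (0.97), and for chi-miR-195-5p chi-miR-181d (0.82) and chi-miR-455-5p (0.80). The counts of chi-miR-199b-5p were within 10% of those of chi-miR-199c-5p in every library, and members of the let-7 family are near-identical, so reads of these miRNAs may be shared with others.

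Markers of other cell types differed in level between the stages. Their counts of called rows are to be read against all tested miRNAs, of which 15.1% were higher and 11.6% lower in DP vs. LL, 21.6% higher and 9.91% lower in DP vs. LG, and 8.91% higher in LL vs. LG. Some rows of a list share a family or a hairpin, so these rows are not independent. The summed level of the 4 epithelial markers was 12854 to 20532 CPM in DP, 34376 to 41735 CPM in LL and 33639.5 to 36916 CPM in LG, and 4 of 4 were differentially expressed and lower in DP vs. LL, and 2 of 4 in DP vs. LG. Of the 5 stromal and smooth muscle markers, 3 were differentially expressed and higher in DP in both comparisons: both arms of miR-199a and chi-miR-214-3p. Chi-miR-143-3p and chi-miR-145-5p were not called. Their log2 fold changes were −0.43 and −0.71 in DP vs. LL, and 0.14 and 0.40 in DP vs. LG. The 5 markers summed to 47519, 67665 and 152588 CPM in DP, 77791 to 125732 CPM in LL and 57436 to 65606 CPM in LG. In bulk tissue, fewer cells of a type and less RNA per cell cannot be told apart. The part of these shifts in the levels of the family was not tested.

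Red blood cells are rich in miR-16 and miR-451. The summed level of the 4 red blood cell markers found was 122, 1284 and 576 CPM in DP replicates 1, 2 and 3, against 365 to 551 CPM in LL and 87.1 to 168 CPM in LG, and 1 of 3 tested was higher in DP vs. LG. DP replicate 2 was highest for these markers and for chi-miR-16a-5p. DP replicate 1 had a lower marker level than any LL library, and its 3832 CPM of chi-miR-16a-5p was above every LL library. LL had higher marker levels than LG, and its chi-miR-16a-5p levels overlapped those of LG. With DP replicate 2 removed, chi-miR-16a-5p differed by 1.03 on the log2 scale in DP vs. LL (adjusted p = 0.0118 from edgeR's test) and 1.05 in DP vs. LG (adjusted p = 0.00846). The part of red blood cells in the levels of the family was not tested.

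For the other marker lists the same shares apply, and with so few rows a count of 1 says little. The 2 endothelial markers summed to 19029.5 to 31977 CPM in DP, 15854 to 22982 CPM in LL and 14717 to 16364 CPM in LG, and 1 of 2 was higher in DP vs. LG. The 5 muscle markers summed to 971 to 3445 CPM in DP, 720.3 to 932 CPM in LL and 419 to 529.8 CPM in LG, with 2 of 5 higher in DP vs. LG and 1 of 5 in DP vs. LL. The 4 immune markers summed to 1709 to 3253 CPM in DP, 7955 to 30666 CPM in LL and 1081 to 5279 CPM in LG, with 3 of 4 higher in DP vs. LG, 1 higher and 1 lower in DP vs. LL, and 3 higher in LL vs. LG. Most of the LL sum was chi-miR-146b-5p, with a mean of 21581 CPM in LL and 1347 CPM in DP. In DP vs. LL it was the lower marker, at −4.00 on the log2 scale, and chi-miR-150 was the higher, at 2.16. Chi-miR-155-5p was at 0.81 and chi-miR-223-3p at −1.06, and neither was called. No marker on any list was at 0 in all libraries, and the part of these shifts in the levels of the family was not tested.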

How the data were processed

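Per the paper's methods, reads trimmed by Trimmomatic were mapped by the authors to goat assembly ARS1.2 in miRDeep2 and quantified on known and predicted miRNAs; the submitters' notes also name cutadapt 4.2 and Bowtie 1.1.1. The deposited values are raw counts per mature miRNA. The deposited LL replicate 3 column was treated as estimated counts because 2 values were not whole, and these were rounded. Samples were grouped by the stage in their titles. A miRNA needed 0.5 CPM or more in 3 or more libraries, which left 696 for edgeR 4.0.16 (glmQLFit, glmQLFTest; TMM; all 9 libraries; stage as the only term), with SE taken as the absolute log2 fold change over the square root of F. Other fits used DESeq2 1.42.0, limma 3.58.1 (voom), different scalings and filters, 2 stages only, a block on replicate number, or all libraries but 1; the code was tested on simulated data. Ratios were tested with exact permutation tests in Python 3.11.15. Named miRNAs are the members, their 3p arms, listed seed relatives, the 2 most alike per member and up to 3 per list; the planned search for further shared seeds needs mature sequences and was not run. All 6 hairpins matched RefSeq genes. The members and lists were chosen with earlier results of these data known. p-values measure the spread between 3 goats per stage.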

Additional observations from a re-analysis of the deposited data

How the results depend on the processing

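The number of differentially expressed members in DP vs. LL (5) and DP vs. LG (2) stayed within 1.5 times in each alternative fit, between 4 and 6 and between 2 and 3 when 1 library was left out. In LL vs. LG it was 0 in the reported fit, 2 by library size only, 1 without a filter, 1 with at least 10 counts in every library and 1 with only the 2 stages in the fit. The cause was not tested. The fold change of chi-miR-16a-5p in LL vs. LG changed sign by library size only (−0.35), after removing chi-miR-148a-3p (−0.012), without a filter (−0.11), with at least 10 counts in every library (−0.043) and with only the 2 stages (−0.011), and lay between −0.11 and 0.14 with 1 library left out. That of chi-miR-497-5p did so with DESeq2 (−0.14), the upper quartile (−0.091), RLE (−0.14), library size only (−0.55), removal of chi-miR-148a-3p (−0.19), no filter (−0.27), at least 10 counts (−0.22) and the 2 stages only (−0.19), and lay between −0.40 and 0.031 with 1 library left out. None of these passed the limits. For the ratio of chi-miR-16a-5p to chi-miR-16b-5p, a rank-based statistic gave a between-stage share of 0.700 (exact permutation p = 0.05), and leaving out 1 library gave 0.736 to 0.949 (p from 0.00357, the smallest p that 280 arrangements allow, to 0.0536, the latter without any 1 of the LG libraries).

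The replicate numbers name different goats. Same-numbered libraries had correlations of their deviations from the stage means between −0.10 and 0.21 (median 0.078), and differently numbered libraries between −0.23 and 0.15 (median −0.014). LL replicate 1 correlated better with LG replicate 2 than with LG replicate 1, so not every library was closest to its own number, and the numbers were not taken as pairs. With the replicate block the counts of differentially expressed members were 5, 2 and 0 as in the reported fit. The depth limits chi-miR-16a-3p and the rarer 3p arms most, and 3 goats per stage limit every comparison.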
